A study of Mus musculus with 8 samples.

Results

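Heat shock and cytosolic chaperone genes were followed in long-term haematopoietic stem cells (LT-HSC) of mouse bone marrow, on 8 expression microarrays in 4 groups of 2. The set is a list of 42 genes: the heat shock factors, the Hsp70, Hsp90 and small heat shock proteins, the J-domain and BAG co-chaperones, the mitochondrial chaperonin, the cytosolic chaperonin and the collagen chaperone of the endoplasmic reticulum. A gene was measured where a probe set carried its symbol and no other, and 37 of the 42 were, among 29915 genes measured in all. The other 5 (Hsf1, Hspa1b, Hspa8, Hsp90ab1 and Dnaja1) are not analysed here. The genes were listed by name, with earlier results of these arrays known, and each probe set was chosen by the highest mean level over the 8 arrays. That mattered only for Serpinh1, whose 2 probe sets averaged 4.67 and 4.13.

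The donors were wild-type (WT) and CD169DTR/+ mice, in which 1 allele of the macrophage gene CD169 (Siglec1) drives the diphtheria toxin receptor. Every mouse of both genotypes received diphtheria toxin, which is meant to deplete CD169+ macrophages in the CD169DTR/+ mice alone. After 72 h the mice were given either 2 Gy of total body irradiation or a sham exposure, and LT-HSC were sorted on day 5 after it as Lin- cKit+ Sca+ Flk2- CD48- CD150+ cells. The groups are therefore non-irradiated WT, WT after 2 Gy, non-irradiated CD169DTR/+ and CD169DTR/+ after 2 Gy. The labels used here give neither the age nor the number of mice behind an array. The 2 arrays of a group are described as separate experiments, and a p-value measures only the spread between such arrays.

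Chaperones bind unfolded or newly made proteins and help them fold, assemble or be degraded. When misfolded protein builds up, heat shock factor Hsf1 is released from chaperones, forms trimers and binds heat shock elements, inverted repeats of the unit nGAAn, in front of inducible chaperone genes. Hsp70 proteins work in cycles with J-domain proteins, which deliver clients and start ATP hydrolysis, and with exchange factors such as Hsp110 and BAG proteins, which release ADP. Hsp90 takes over clients such as kinases and steroid receptors, and the chaperonin rings fold proteins in a closed chamber, actin and tubulin among them. Blood stem cells are known for a low rate of protein synthesis and for their sensitivity to misfolded protein.

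The heat shock element is the sequence that several of these genes share, so the matches that bear on the genes described most fully are shown first. RefSeq promoter windows of mouse assembly GRCm38.p6, from 250 bases before to 50 bases after the transcription start, were in the table used for 34 of the 42 listed genes. Some genes had more than 1 window, and a match in any of them was counted. A pair of units (GAANNTTC or TTCNNGAA, each its own reverse complement) was present for 17 of the 34 genes, or 50%, against 16.97% of all 27025 genes in the table. A run of 3 units (GAANNTTCNNGAA or TTCNNGAANNTTC, each the reverse complement of the other and each containing pairs) was present in 5 of the 34 (14.71%), against 0.6623% of all genes. Those 5 genes were Hspd1, Hspe1, Hsph1, Chordc1 and Dnajb6. A match describes the letters only, and no binding was measured.

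The stretches with a run of 3 or more units are given 5′ to 3′ on the gene's strand, with overlapping matches in capitals. The first base of the transcript counts as position 1. Where a gene had more than 1 start, positions are counted from 1 of them. From another start, the runs of Hsph1 and Dnajb6 begin at positions 37 and -127. The Hspe1 stretch lies at positions -95 to -66 of that gene (chr1:55088053-55088082, plus strand), and also in the window of its neighbour Hspd1, which is read the other way from a start 216 bases off. The Hsph1 stretch lies at positions 7 to 36 (chr5:149636280-149636309, minus strand), that of Chordc1 at -7 to 23 (chr9:18292260-18292289, plus strand), and that of Dnajb6 at -55 to -26 (chr5:29735843-29735872, plus strand).
Hspe1: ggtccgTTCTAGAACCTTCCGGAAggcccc
Hsph1: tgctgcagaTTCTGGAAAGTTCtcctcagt
Chordc1: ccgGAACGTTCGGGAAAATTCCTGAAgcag
Dnajb6: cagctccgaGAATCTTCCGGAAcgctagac

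Hspb8, Bag3 and Hspb1 held pairs, marked in capitals in the same way. They are shown because these 3 genes, with Hsph1 and Hspa4l, had an unadjusted limma p under 0.05 for irradiation in CD169DTR/+ mice. Hspa4l had no match in its window, and neither did Dnajb1 and Dnaja3, which with Hsph1 had such a p for irradiation in WT. The stretch of Hspb8 covers positions -9 to 21 (chr5:116422844-116422873, minus strand), that of Bag3 positions 21 to 50 (chr7:128523603-128523632, plus strand) and that of Hspb1 positions -150 to -1 (chr5:135887769-135887918, plus strand).
Hspb8: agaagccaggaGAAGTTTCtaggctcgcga
Bag3: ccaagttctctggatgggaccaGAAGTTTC
Hspb1: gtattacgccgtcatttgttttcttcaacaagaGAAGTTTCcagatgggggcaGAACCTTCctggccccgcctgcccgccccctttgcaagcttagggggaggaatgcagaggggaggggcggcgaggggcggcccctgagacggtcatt

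The inducible Hsp70 genes Hspa1a and Hspa1b lie side by side and are near copies. Their upstream stretches of 150 bases, at chr17:34972157-34972306 and chr17:34959239-34959388 on the minus strand, were identical at 149 bases (99.3%), and each held 1 pair. They share 1 probe set on the array, which is why Hspa1b has no value of its own, and the signal of the Hspa1a probe set may not separate the copies.
Hspa1a: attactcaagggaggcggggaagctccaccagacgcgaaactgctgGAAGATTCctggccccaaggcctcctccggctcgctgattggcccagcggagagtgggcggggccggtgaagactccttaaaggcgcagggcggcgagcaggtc
Hspa1b: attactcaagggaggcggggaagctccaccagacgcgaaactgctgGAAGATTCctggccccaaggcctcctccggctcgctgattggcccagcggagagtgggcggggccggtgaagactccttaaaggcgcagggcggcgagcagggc

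The values are log2 intensities, 1 per probe set and array, with array medians from 4.76 to 4.93. All 9 LT-HSC genes measured lay above the array medians, from Hoxb5 (5.06 to 5.83) and Procr (6.27 to 7.03) up to Hlf (12.44 to 13.33) and Kit (14.25 to 14.93). Cd48, whose protein the gate excludes, was at 10.98 to 13.47. Flt3, the gene of Flk2, which the gate also excludes, was at 5.85 to 8.22. Of 9 macrophage genes, Siglec1 lay between 3.86 and 4.12, near the 25th percentiles of the arrays (3.85 to 4.04), 6 more stayed at or under 4.84, Vcam1 lay between 4.61 and 6, and Cd68 was at 7.57 to 8.67. Replicate 1 of WT after 2 Gy and replicate 2 of CD169DTR/+ after 2 Gy stood apart from the other 6 arrays on the first 2 principal components, which held 21.7% and 19.7% of the variance. For the chaperone genes 2 arrays carried many of the extremes. Replicate 2 of non-irradiated CD169DTR/+ held the highest value for 18 of the 37 genes, against 8.87% of all probe sets, and replicate 1 of WT after 2 Gy held the lowest value for 15 of the 37, against 10.9%. Some counts and medians that rest on these arrays are also given without them. The other counts and most differences of single genes are given with all 8 arrays.

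**Figure D1:**
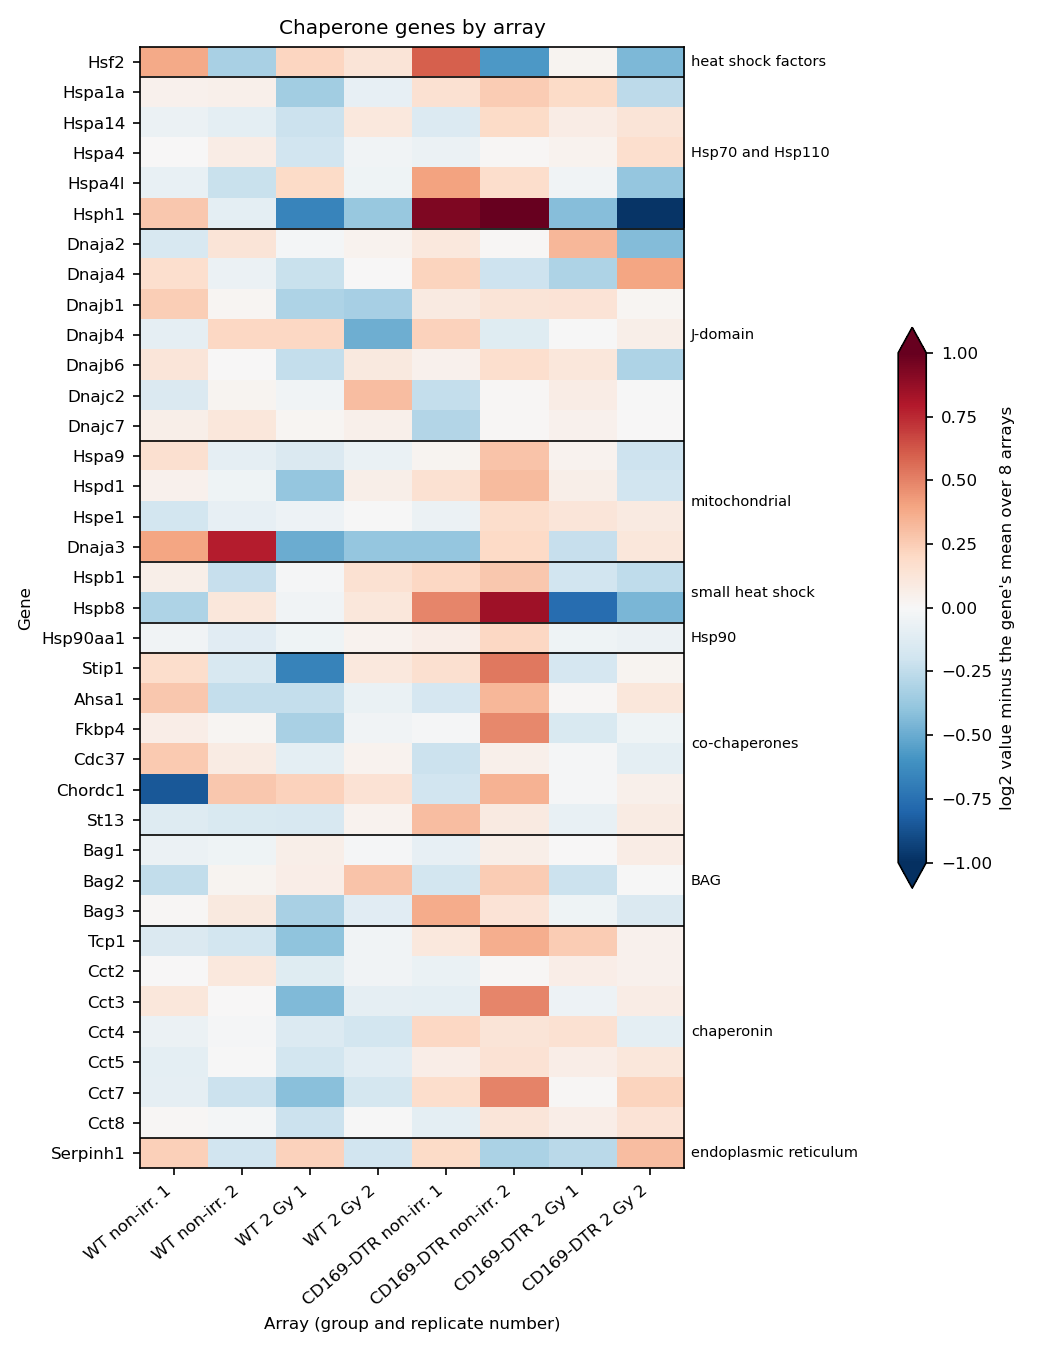
Deviation of each of the 37 measured chaperone genes from its own mean over the 8 arrays (log2, colour), with arrays in columns by group and genes in rows by role. The column of replicate 2 of non-irradiated CD169DTR/+ is mostly above the gene means (median deviation 0.17) and that of replicate 1 of WT after 2 Gy mostly below (-0.16).

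Most chaperone genes were lower after 2 Gy than without it in both genotypes, by small amounts, and most were higher in CD169DTR/+ than in WT LT-HSC. Part of this rested on replicate 1 of WT after 2 Gy and on replicate 2 of non-irradiated CD169DTR/+. Without the former, 20 of 37 were lower after 2 Gy in WT. Between the irradiated groups, 18 were then higher and 19 lower in CD169DTR/+. Without the latter, 21 of 37 were lower after 2 Gy in CD169DTR/+. Between the non-irradiated groups, 21 were then higher and 16 lower in CD169DTR/+. None of the 37 passed an adjusted p under 0.05 in limma in any of the 7 comparisons, where adjustment was over all 30294 probe sets tested within a comparison. The same threshold was passed by 0.0099% of all probe sets for irradiation in WT, by 0.0099% for irradiation averaged over genotypes and by 0% in the other 5 comparisons. At an unadjusted limma p under 0.05, irradiation in WT gave 0 genes higher and 3 lower (Dnaja3, Dnajb1 and Hsph1), and irradiation in CD169DTR/+ gave 0 higher and 5 lower (Hsph1, Hspb8, Hspb1, Hspa4l and Bag3). With a fold of at least 1.5 required as well, in either direction, the genes called were 2 for irradiation in WT (3.31% of all probe sets), 2 in CD169DTR/+ (3.58%), 1 averaged (1.94%), 3 for the genotype without irradiation (1.89%), 1 after 2 Gy (3.56%), 0 averaged (1.05%) and 5 for the interaction (4.01%). In bulk RNA of sorted cells, fewer cells of a type and less RNA per cell cannot be told apart.

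In WT, 24 of the 37 genes (64.9%) were lower after 2 Gy and 13 were higher, while 35% of all probe sets were lower. The median difference of the list was -0.13 log2, beside 0.08 for all probe sets. The 3 genes at an unadjusted p under 0.05 make 8.11% of the list, beside 3.21% of all probe sets called lower, and no gene was called higher beside 4.6%. Both irradiated arrays lay below both non-irradiated arrays for 13 genes (35.1%, against 13.2% of all probe sets) and above them for 4 (10.8%, against 31.4%). Centring each array on its median moved the median of all probe sets to -0.05 and left 30 of 37 chaperone genes lower (81.1%). With cyclic loess scaling, 24 of 37 were lower, as with the deposited values. The 35% given above is for the deposited values. Without replicate 1 of WT after 2 Gy, 20 of 37 were lower and the median of the list was -0.03. Without replicate 1 of non-irradiated WT, the count lower at an unadjusted limma p under 0.05 was 1. Neutrophil genes were higher after 2 Gy in WT for 11 of 11, 8 of them at an unadjusted limma p under 0.05 (against 4.6% of all probe sets), with a median of 1.80. Megakaryocyte genes were higher for 8 of 9, 3 of them at that threshold, with a median of 0.59 in WT and 0.63 averaged over genotypes. Their mean level was 9.64 and 9.70 on the non-irradiated WT arrays, 10.84 and 9.67 in WT after 2 Gy, 9.38 and 9.58 in non-irradiated CD169DTR/+, and 10.26 and 9.79 in CD169DTR/+ after 2 Gy. LT-HSC genes were higher for 5 of 9 after 2 Gy in WT and lower for 4. At an unadjusted limma p under 0.05, 3 of them were lower (against 3.21% of all probe sets) and 0 higher. The part of these cell types in the chaperone values was not tested.

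In CD169DTR/+ mice, 25 of the 37 genes (67.6%) were lower after 2 Gy, against 42.4% of all probe sets, and the median difference was -0.11, beside 0.04. The 5 genes at an unadjusted p under 0.05 make 13.5% of the list, beside 3.53% of all probe sets, and those called higher were 0 beside 3.24%. The 2 groups did not overlap for 10 genes that were lower (27%, against 13.4%) and for 2 that were higher (5.41%, against 17.8%). Without replicate 2 of the non-irradiated group, 21 of 37 were lower, and without replicate 2 of the irradiated group the count at an unadjusted limma p under 0.05 was 2. Erythroid genes were lower for 6 of 7 in this comparison, 1 of them at that threshold, with a median of -0.27. Cd48 was at 11.05 and 12.54 without irradiation and at 13.47 and 13 after it. In WT it was at 11.24 and 10.98, then 12.95 and 12.14. Flt3 was at 7.37 and 8.22, then 5.85 and 6.48 in CD169DTR/+, and at 7.99 and 7.12, then 6.45 and 6.65 in WT. Of 6 measured genes for proteins that the gate excludes, 3 were higher and 3 lower in CD169DTR/+, and 4 higher and 2 lower in WT. The part of these lists in the chaperone values was not tested. Averaged over both genotypes, 29 of the 37 genes were lower (78.4%, against 35.9%), with a median of -0.09 beside 0.06. Of these, Hsph1, Hspb8, Bag3, Dnaja3 and Dnajb1 were lower at an unadjusted limma p under 0.05 (13.5%, against 3.98%), and 0 were higher (against 5.24%). With the arrays centred on their medians, 34 of 37 were lower (91.9%), and the median of all probe sets moved to -0.02. With cyclic loess scaling, 30 of 37 were lower (81.1%). The 35.9% given above is for the values as deposited. The count of 5 became 2 without replicate 1 of WT after 2 Gy, and 3 without replicate 2 of non-irradiated WT or of either CD169DTR/+ group.

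**Figure D2:**
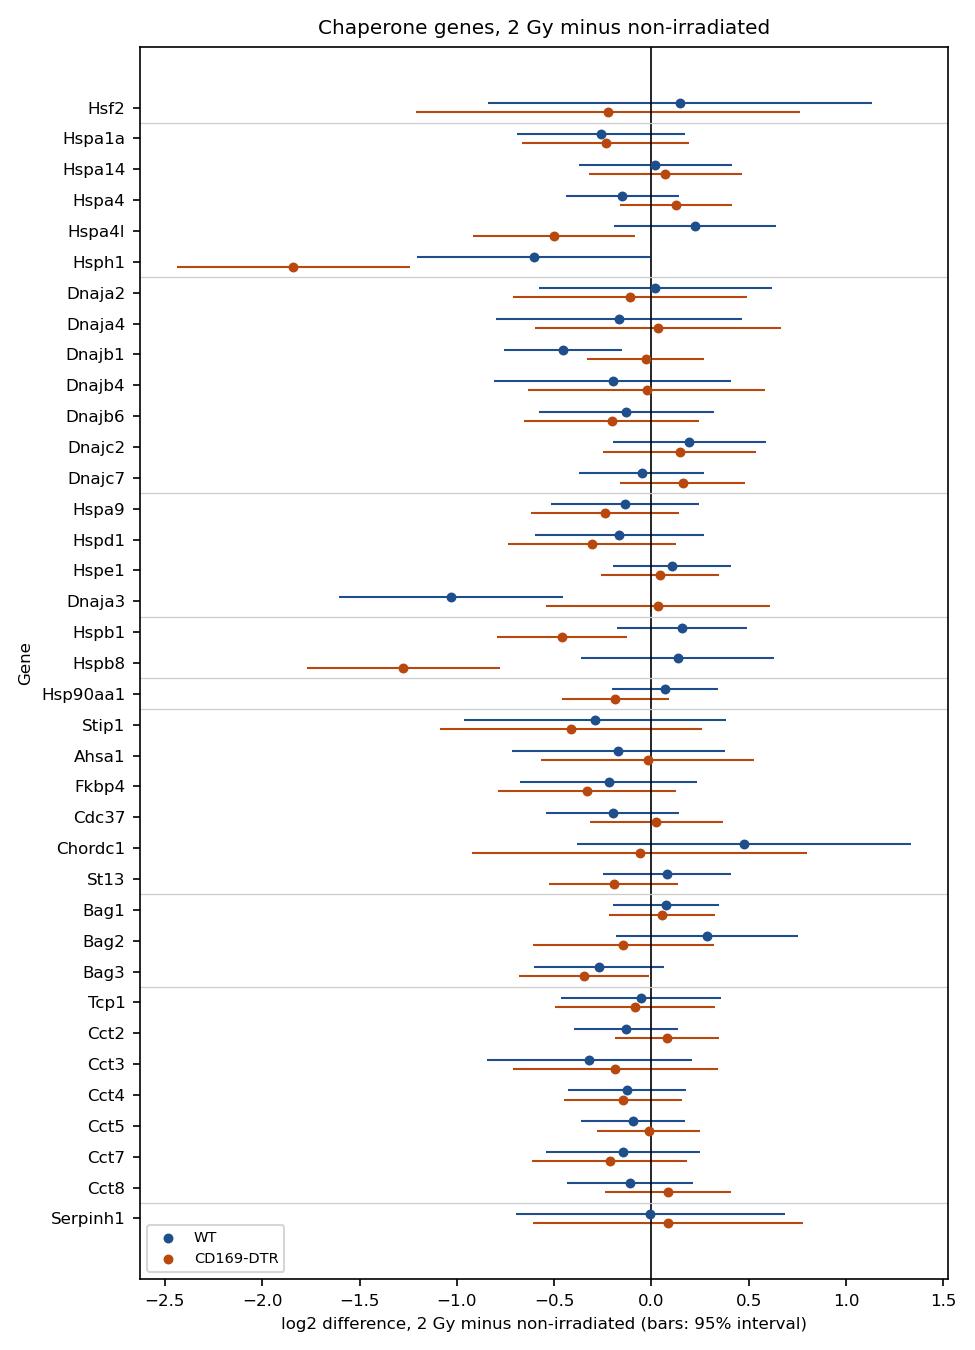
Difference between 2 Gy and non-irradiated LT-HSC for each of the 37 chaperone genes (log2, points) with 95% limma intervals (bars), in WT and in CD169DTR/+ mice, ordered by role. Points of the 7 chaperonin genes in WT lie between -0.32 and -0.06, and the points farthest from 0 are Dnaja3 in WT (-1.03) and Hsph1 (-1.84) and Hspb8 (-1.28) in CD169DTR/+.

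The early response genes (Fos, Jun, Egr1 and others), which are induced within minutes when cells are handled or stressed, also tended to be lower after 2 Gy. Of 11 measured, 9 were lower after 2 Gy averaged over genotypes (against 35.9% of all probe sets), 6 of them at an unadjusted limma p under 0.05 (against 3.98%), with a median of -0.47. Their mean level was 8.44 and 8.04 on the non-irradiated WT arrays and 7.69 and 7.61 in WT after 2 Gy. It was 7.89 and 7.95 in non-irradiated CD169DTR/+, and 7.20 and 7.36 in CD169DTR/+ after 2 Gy. Between genotypes, averaged over irradiation, 11 of 11 were lower in CD169DTR/+ (against 48.3% of all probe sets), with a median of -0.26. Of these, 3 had an unadjusted limma p under 0.05 (against 2.58%). Of the chaperone genes, 30 of 37 were higher in CD169DTR/+ in that comparison (against 51% of all probe sets). The part of the early response genes in the chaperone values was not tested.

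Hsph1, the Hsp110 protein that releases ADP from Hsp70 and helps to dissolve aggregates, differed most. Its log2 level was 11.81 and 11.44 in non-irradiated WT, 10.88 and 11.16 in WT after 2 Gy, 12.47 and 12.88 in non-irradiated CD169DTR/+, and 11.11 and 10.56 in CD169DTR/+ after 2 Gy. Both non-irradiated CD169DTR/+ arrays stood above the other 6, the irradiated arrays of the 2 genotypes overlapped, and in each genotype the irradiated arrays lay below the non-irradiated ones. In CD169DTR/+ the level after 2 Gy was 1.84 log2 units below that without (SE 0.25, 95% interval -2.44 to -1.24), a 3.58-fold difference (2.36 to 5.43). In limma this was the 13th smallest p of the 30294 probe sets, with an adjusted p of 0.436. In WT the difference was -0.61 (SE 0.25, limma adjusted p = 0.639), and averaged over genotypes it was -1.22 (SE 0.18, -1.65 to -0.80, limma adjusted p = 0.209), 2.33-fold lower. CD169DTR/+ without irradiation was 1.05 above WT (SE 0.25, 0.45 to 1.65), 2.07-fold, at an limma adjusted p of 0.937. After 2 Gy the difference between genotypes was -0.19 (SE 0.25). The irradiation effect in CD169DTR/+ and the genotype effect without irradiation share the 2 high arrays, so they are not independent of each other.

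The other Hsp70 and Hsp110 genes showed smaller differences. Hspa4l, an Hsp110 relative, stood at 9.40 and 9.25 in non-irradiated WT, 9.67 and 9.43 in WT after 2 Gy, 9.88 and 9.65 in non-irradiated CD169DTR/+, and 9.44 and 9.09 in CD169DTR/+ after 2 Gy. One array of non-irradiated CD169DTR/+ was the highest of the 8, and the other lay just under the higher irradiated WT array. Irradiation in CD169DTR/+ gave -0.50 (SE 0.17, limma adjusted p = 0.642) and irradiation in WT 0.23. Hspa1a, the stress-inducible Hsp70, was dim: 4.29 and 4.30, then 3.90 and 4.17 in WT without and with 2 Gy, and 4.40 and 4.50, then 4.44 and 3.99 in CD169DTR/+. Its mean level (4.25) was the lowest of the list and the only one under the 40th percentile of mean level, so its low values leave little room to measure a decrease. Hspa4, a constitutive Hsp110 family member, kept within 13.05 to 13.41 on all 8 arrays, and Hspa14, which works at the ribosome, within 9.13 to 9.54.

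**Figure D3:**
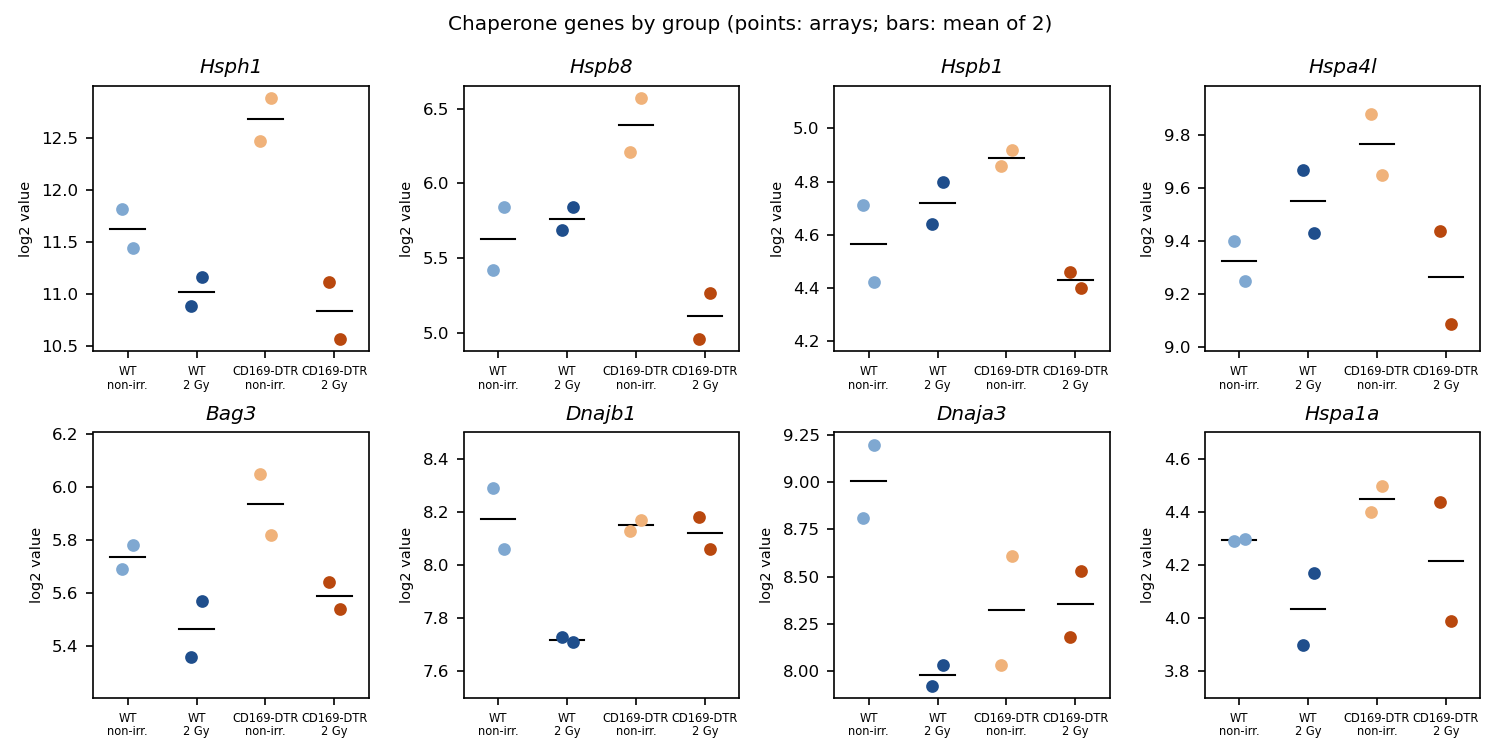
Log2 level of the leading chaperone genes on each array (points), by group, with the group mean (line), n = 2 per group and a separate axis for each gene. Hsph1 and Hspb8 are highest on both arrays of non-irradiated CD169DTR/+, and Dnaja3 is highest on both arrays of non-irradiated WT.

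The small heat shock proteins hold unfolded clients in oligomers without using ATP. Hspb8, which pairs with Bag3 in the removal of aggregates by autophagy, was at 5.42 and 5.84 in non-irradiated WT, 5.69 and 5.84 in WT after 2 Gy, 6.21 and 6.57 in non-irradiated CD169DTR/+, and 4.96 and 5.27 in CD169DTR/+ after 2 Gy. The 2 CD169DTR/+ groups were the highest and the lowest of the 4, with both WT groups between them and overlapping each other. The difference with irradiation was -1.28 log2 in CD169DTR/+ (SE 0.21, -1.77 to -0.78), 2.42-fold lower (1.72 to 3.41), the 35th smallest p of all probe sets in limma, at an adjusted p of 0.466. It was 0.14 in WT. CD169DTR/+ exceeded WT by 0.76 without irradiation (SE 0.21, limma adjusted p = 0.998) and was below it by 0.65 after 2 Gy (SE 0.21, limma adjusted p = 0.640).

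Hspb1, the Hsp27 homologue that protects actin and blocks cell death, followed the same order at a dim level. It read 4.71 and 4.42 in non-irradiated WT, 4.64 and 4.80 in WT after 2 Gy, 4.86 and 4.92 in non-irradiated CD169DTR/+, and 4.46 and 4.40 in CD169DTR/+ after 2 Gy. Both non-irradiated CD169DTR/+ arrays were above the other 6. The irradiation difference in CD169DTR/+ was -0.46 (SE 0.14, limma adjusted p = 0.622), against 0.16 in WT, and the genotype difference after 2 Gy was -0.29 (SE 0.14, limma adjusted p = 0.688).

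Among the J-domain genes, Dnajb1, the Hsp40 partner of inducible Hsp70 and a classical Hsf1 target, differed in WT. It was at 8.29 and 8.06 without irradiation and at 7.73 and 7.71 after 2 Gy, and in CD169DTR/+ at 8.13 and 8.17 without and 8.18 and 8.06 after. The 2 irradiated WT arrays were the lowest of the 8, while all others lay within 8.06 to 8.29. The difference in WT was -0.46 (SE 0.13, limma adjusted p = 0.514), 1.37-fold lower, and in CD169DTR/+ it was -0.03. After 2 Gy, CD169DTR/+ was above WT by 0.40 (SE 0.13, limma adjusted p = 0.636). The other 6 J-domain genes of the cytosol (Dnaja2, Dnaja4, Dnajb4, Dnajb6, Dnajc2 and Dnajc7) gave no unadjusted limma p under 0.05 in any of the 7 comparisons.

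Dnaja3 (Tid1), the J-domain partner of mitochondrial Hsp70, was at 8.81 and 9.20 in non-irradiated WT, 7.92 and 8.03 in WT after 2 Gy, 8.03 and 8.61 in non-irradiated CD169DTR/+, and 8.18 and 8.53 in CD169DTR/+ after 2 Gy. The non-irradiated WT arrays were above all the others, and the 2 CD169DTR/+ groups overlapped. Irradiation in WT gave -1.03 (SE 0.24, -1.61 to -0.45, limma adjusted p = 0.480), 2.04-fold lower, and in CD169DTR/+ 0.04. Without irradiation CD169DTR/+ was below WT by 0.69 (SE 0.24, limma adjusted p = 0.999), and after 2 Gy it was above by 0.38.

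Hspd1 (Hsp60), the mitochondrial chaperonin, was at 11.82 and 11.73 in non-irradiated WT, 11.39 and 11.83 in WT after 2 Gy, 11.93 and 12.09 in non-irradiated CD169DTR/+ and 11.83 and 11.58 in CD169DTR/+ after 2 Gy. Hspe1 (Hsp10), its lid, was at 12.17 and 12.27, then 12.30 and 12.35 in WT, and at 12.29 and 12.53, then 12.47 and 12.44 in CD169DTR/+. The averaged irradiation difference was -0.24 for Hspd1 (SE 0.13, limma adjusted p = 0.602) and 0.08 for Hspe1 (SE 0.09, limma adjusted p = 0.778). The 2 genes share the promoter stretch shown above, and its part in these values was not tested. Averaged over irradiation, CD169DTR/+ was above WT by 0.17 for Hspd1 and by 0.16 for Hspe1, at limma adjusted p of 0.891 and 0.832.

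Hsp90aa1, the inducible cytosolic Hsp90, had the highest level of the list, from 15.81 to 16.13. It was at 15.89 and 15.81 in non-irradiated WT, 15.88 and 15.96 in WT after 2 Gy, 15.99 and 16.13 in non-irradiated CD169DTR/+, and 15.88 and 15.87 in CD169DTR/+ after 2 Gy. The groups overlapped except that both non-irradiated CD169DTR/+ arrays were the highest of the 8. Its irradiation difference was 0.07 in WT and -0.19 in CD169DTR/+. The 6 co-chaperones of Hsp90 and Hsp70 (Stip1, Ahsa1, Fkbp4, Cdc37, Chordc1 and St13) were lower after 2 Gy in 4 cases in WT and in 5 in CD169DTR/+.

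Fkbp4 (FKBP52), the immunophilin of steroid receptor complexes, was at 10.83 and 10.78 in non-irradiated WT, 10.44 and 10.73 in WT after 2 Gy, 10.75 and 11.24 in non-irradiated CD169DTR/+, and 10.61 and 10.72 in CD169DTR/+ after 2 Gy. All 4 irradiated arrays lay below all 4 non-irradiated ones, with an averaged difference of -0.28 (SE 0.13, limma adjusted p = 0.577). St13 (Hip), which steadies the ADP form of Hsp70, was above WT by 0.34 in non-irradiated CD169DTR/+ (SE 0.14, limma adjusted p = 0.999). It was at 11.44 and 11.22 there, against 11 and 10.98 on the WT arrays. Chordc1, an Hsp90 binding protein whose promoter held the longest run of units shown, had 1 array far from the rest: 10.24 on replicate 1 of non-irradiated WT, with the other 7 between 10.90 and 11.44.

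Bag3, the stress-inducible BAG protein, was at 5.69 and 5.78 in non-irradiated WT, 5.36 and 5.57 in WT after 2 Gy, 6.05 and 5.82 in non-irradiated CD169DTR/+, and 5.64 and 5.54 in CD169DTR/+ after 2 Gy. As with Fkbp4 and Hsph1, all 4 irradiated arrays were below all 4 non-irradiated ones, which held for 3 of 37 genes (8.11%) and 1.74% of all probe sets. The opposite order held for 0 genes, against 3.76%. The averaged difference of Bag3 was -0.31 (SE 0.10, limma adjusted p = 0.470), with -0.27 in WT and -0.35 in CD169DTR/+. Bag2, which inhibits the ubiquitin ligase Chip, was at 5.55 and 5.82 in non-irradiated WT and 5.86 and 6.08 after 2 Gy, a difference of 0.29 (SE 0.19, limma adjusted p = 0.717). Bag1, an exchange factor that links Hsp70 to the proteasome, stayed within 14.71 to 14.87.

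The genotype comparison without irradiation gave 26 of the 37 genes higher in CD169DTR/+ (70.3%, against 57% of all probe sets), with a median of 0.14 beside 0.03. At an unadjusted limma p under 0.05, 5 were higher (Hsph1, Hspb8, Cct7, Hspa4l and St13; 13.5%, against 2.49%) and Dnaja3 was lower (2.70%, against 1.89%). The groups did not overlap for 14 that were higher (37.8%, against 19.1%) and 3 that were lower (8.11%, against 11.9%). Without replicate 2 of non-irradiated CD169DTR/+, 21 of 37 were higher and the median was 0.11. The count of 5 became 3 without that array and without either non-irradiated WT array. On that array the 7 erythroid genes had a median deviation of 0.31 and Car1 was at 16.07, its highest of the 8 arrays. Neutrophil genes were higher in CD169DTR/+ for 11 of 11 in this comparison, 1 of them at an unadjusted limma p under 0.05, with a median of 0.99. The part of either list in the chaperone values was not tested.

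After 2 Gy, 23 of the 37 genes were higher in CD169DTR/+ than in WT, 13 were lower and Serpinh1 was equal, while 45.7% of all probe sets were higher and 53.3% lower. The medians were 0.10 and -0.02. At an unadjusted limma p under 0.05, Dnajb1 and Cct7 were higher (5.41%, against 3.86%) and Hspb8 was lower (2.70%, against 3.71%), shares close to those of all probe sets. The groups did not overlap for 12 that were higher (32.4%, against 16%) and 5 that were lower (13.5%, against 18.9%). With the arrays centred on their medians, 29 were higher and 8 lower, and the median of all probe sets moved to 0.045. With cyclic loess scaling, 23 were higher and 14 lower. Without replicate 1 of WT after 2 Gy, 18 were higher and 19 lower, with a median of -0.005, so the direction of the list turned with that array. The count higher at an unadjusted p under 0.05 lay between 0 and 3 over the 8 arrays left out, with 0 without that same array. Averaged over irradiation, 30 of 37 were higher (81.1%, against 51%), with a median of 0.08 beside 0.005. At an unadjusted limma p under 0.05, Cct7, Tcp1, Cct5 and Hsph1 were higher (10.8%, against 3.75%) and 0 were lower (against 2.58%). The count of 4 became 1 without replicate 1 of WT after 2 Gy, replicate 2 of non-irradiated CD169DTR/+ or replicate 1 of CD169DTR/+ after 2 Gy, and 2 without replicate 2 of non-irradiated WT. In the same averaged comparison, 8 of 9 LT-HSC genes were lower in CD169DTR/+ (against 48.3% of all probe sets), with a median of -0.22. Of these, 2 had an unadjusted limma p under 0.05 (against 2.58%). Their part in the chaperone values was not tested.

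**Figure D4:**
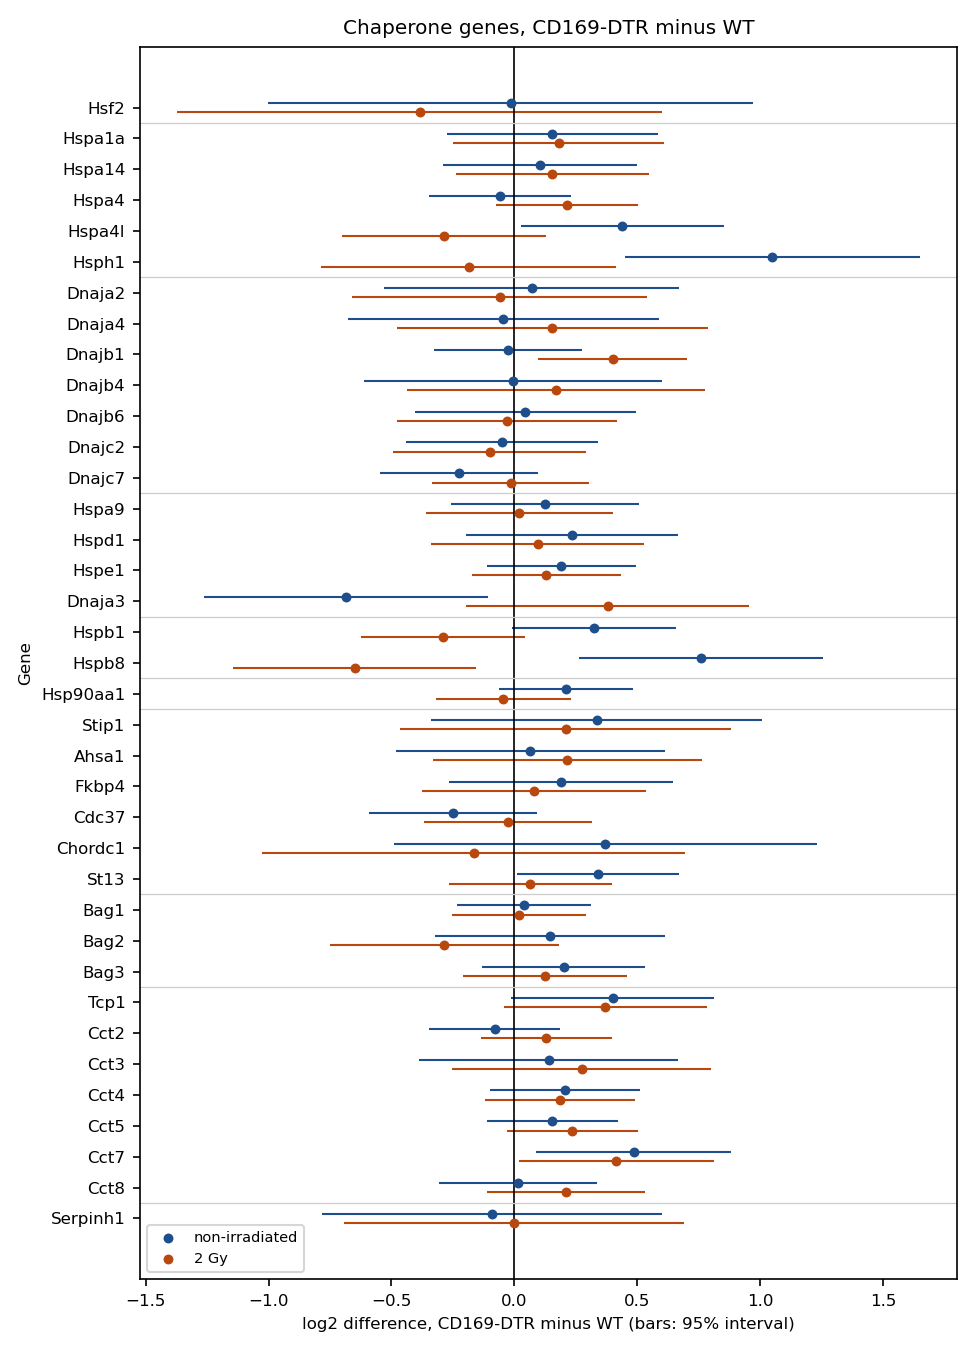
Difference between CD169DTR/+ and WT LT-HSC for each of the 37 chaperone genes (log2, points) with 95% limma intervals (bars), without irradiation and after 2 Gy, ordered by role. Hsph1 (1.05 and -0.19) and Hspb8 (0.76 and -0.65) lie on opposite sides of 0 in the 2 conditions, while the 7 chaperonin genes lie above 0 after 2 Gy.

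The cytosolic chaperonin, a double ring of related subunits called CCT or TRiC, was measured through 7 genes. After 2 Gy all 7 were higher in CD169DTR/+ than in WT, by 0.13 to 0.42 log2, and for each of them both CD169DTR/+ arrays lay above both WT arrays. Such a separation was seen for 16% of all probe sets. The 7 genes were also higher with cyclic loess scaling (0.12 to 0.40), with median centring (0.20 to 0.48) and with each array left out in turn, replicate 1 of WT after 2 Gy among them (0.09 to 0.30). None passed the adjusted threshold in limma, and 1 had an unadjusted p under 0.05.

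Cct7 (the eta subunit) differed most, at 14.08 and 13.95 in non-irradiated WT, 13.75 and 13.99 in WT after 2 Gy, 14.34 and 14.66 in non-irradiated CD169DTR/+, and 14.18 and 14.39 in CD169DTR/+ after 2 Gy. Tcp1 (the alpha subunit) was at 9.96 and 9.92, then 9.70 and 10.07 in WT, and at 10.21 and 10.47, then 10.36 and 10.15 in CD169DTR/+. Cct5 (the epsilon subunit) was at 14.27 and 14.36, then 14.18 and 14.26 in WT, and at 14.43 and 14.51, then 14.43 and 14.48 in CD169DTR/+. For these 3 genes all 4 CD169DTR/+ arrays were above all 4 WT arrays, with or without irradiation. Among the 37 genes that makes 8.11%, against 1.52% of all probe sets, and the opposite order was seen for 0 genes, against 1.09%.

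Averaged over irradiation, CD169DTR/+ exceeded WT by 0.45 for Cct7 (SE 0.12, limma adjusted p = 0.720), by 0.39 for Tcp1 (SE 0.12, limma adjusted p = 0.770) and by 0.20 for Cct5 (SE 0.08, limma adjusted p = 0.787). Cct4 followed with 0.20 (SE 0.09, limma adjusted p = 0.812), and the 7 genes ranged from 0.03 to 0.45. Without irradiation 6 of 7 were higher, Cct2 being lower by 0.08, and 5 of 7 under either rescaling. Without replicate 2 of non-irradiated CD169DTR/+ it was 4 of 7. With irradiation in WT all 7 were lower, by 0.06 to 0.32, and Cct3 (the gamma subunit) gave -0.32 (SE 0.22, limma adjusted p = 0.718). Without replicate 1 of WT after 2 Gy, 6 of 7 were lower and Tcp1 was at 0.13, and 5 of 7 were lower with irradiation in CD169DTR/+.

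**Figure D5:**
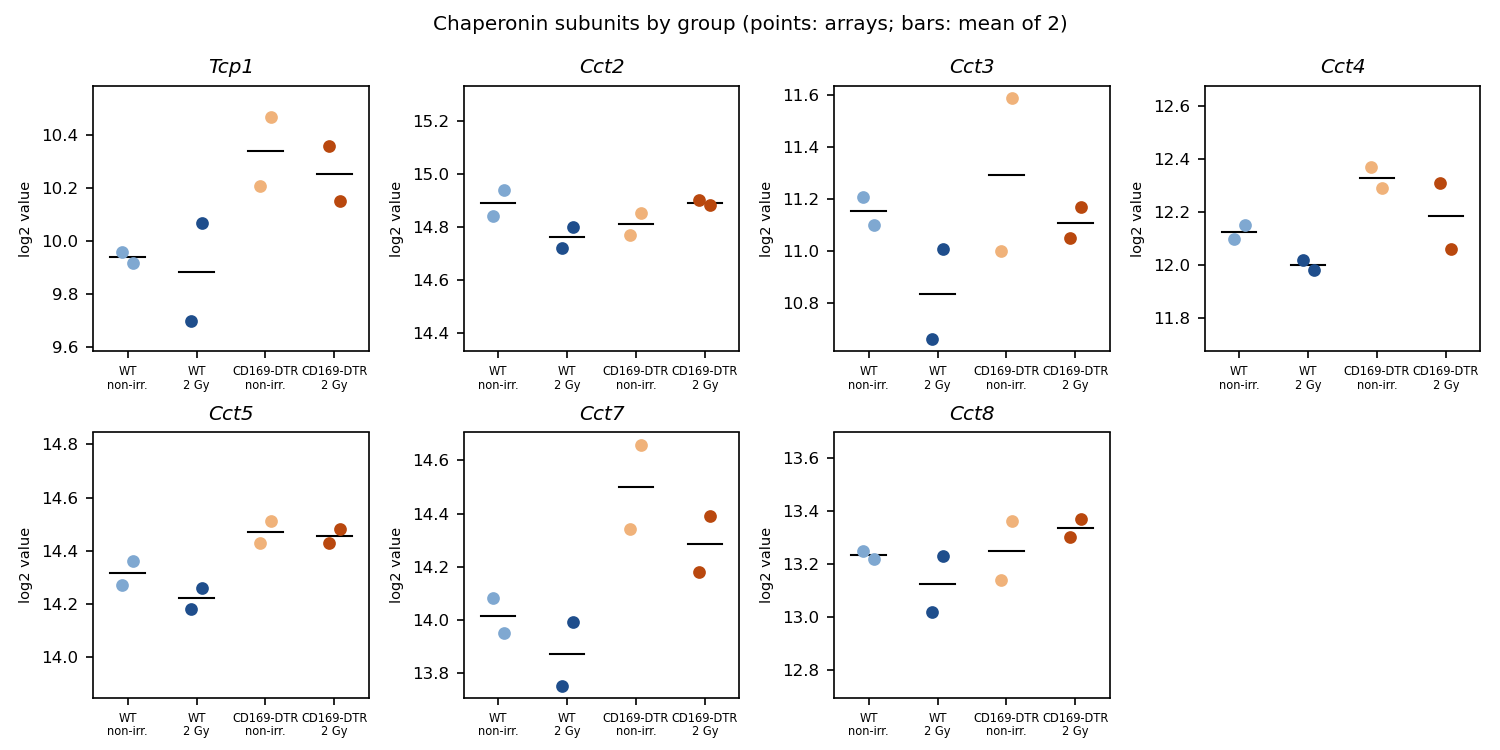
Log2 level of the 7 cytosolic chaperonin genes on each array (points), by group, with the group mean (line), n = 2 per group and a separate axis for each gene. The CD169DTR/+ arrays of Cct7, Tcp1 and Cct5 lie above every WT array of the same gene.

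The single heat shock factor measured, Hsf2, which responds in development and to proteasome block, spread widely within groups: 8.23 and 7.53 in non-irradiated WT, 8.07 and 7.98 in WT after 2 Gy, 8.45 and 7.28 in non-irradiated CD169DTR/+, and 7.88 and 7.40 in CD169DTR/+ after 2 Gy. The replicates of one group differed by up to 1.17, more than the group means did, and no comparison had an unadjusted limma p under 0.05. Its irradiation difference in WT was 0.15, and -0.21 without replicate 2 of non-irradiated WT. Serpinh1 (Hsp47), the collagen chaperone, was dim, at 4.91 and 4.48, then 4.90 and 4.48 in WT, and at 4.86 and 4.35, then 4.40 and 4.98 in CD169DTR/+. Its groups overlapped throughout.

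The interaction asks whether the irradiation difference in CD169DTR/+ departs from that in WT. It was -1.41 log2 for Hspb8 (SE 0.29, -2.11 to -0.71, limma adjusted p = 0.836), -1.24 for Hsph1 (SE 0.35, adjusted p = 0.883), -0.62 for Hspb1 (SE 0.20, adjusted p = 0.913) and -0.73 for Hspa4l (SE 0.24, adjusted p = 0.913). It was 1.07 for Dnaja3 (SE 0.34, limma adjusted p = 0.913) and 0.43 for Dnajb1 (SE 0.18, adjusted p = 0.933). None passed. At an unadjusted p under 0.05, 4 genes were negative (10.8%, against 2.78% of all probe sets) and Dnaja3 was positive (2.70%, against 2.4%). Over the list 22 were negative and 15 positive (57.5% of all probe sets were negative), with a median of -0.05, the same as for all probe sets. With median centring the split was 14 negative and 23 positive, so no direction of the list can be given. Neutrophil genes had an interaction below 0 for 11 of 11, 5 of them at an unadjusted limma p under 0.05, and their mean level ranged over 7.63 to 8.57 in non-irradiated WT, 9.80 to 10.38 in WT after 2 Gy, 9.06 to 9.65 in non-irradiated CD169DTR/+ and 8.62 to 9.63 in CD169DTR/+ after 2 Gy. Their part in the chaperone values was not tested.

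A further list of 71 genes of the same pathway, outside the 42 and drawn up with earlier results known, held 64 that were measured, such as prefoldin, more J-domain proteins and mitochondrial proteases. None passed the adjusted threshold in limma. At an unadjusted p under 0.05, irradiation averaged over genotypes gave 5 higher and 3 lower of 64 (7.81% and 4.69%, against 5.24% and 3.98% of all probe sets), with 42 higher and 22 lower. The share higher, 65.6%, was close to the 63.7% of all probe sets. Depletion averaged over irradiation gave 5 higher and 0 lower at that threshold (7.81% and 0%, against 3.75% and 2.58% of all probe sets), with 48 of 64 higher (75%, against 51%).

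Hspbp1, an exchange factor and inhibitor of Hsp70, had the smallest p of the 64 for irradiation averaged over genotypes. It was at 11.40 and 11.30 in non-irradiated WT, 10.26 and 10.95 in WT after 2 Gy, 11.74 and 11.89 in non-irradiated CD169DTR/+, and 11.20 and 11.26 in CD169DTR/+ after 2 Gy. All 4 irradiated arrays were below all 4 non-irradiated ones, by 0.67 on average (SE 0.16, limma adjusted p = 0.377). Dnajc9, a histone co-chaperone, had the smallest p for the genotype difference after 2 Gy: 11.56 and 11.86 in WT against 12.41 and 12.37 in CD169DTR/+, a difference of 0.68 (SE 0.14, limma adjusted p = 0.551).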

How the data were processed

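Total RNA of sorted LT-HSC was hybridised to 8 arrays, 2 in each of 4 groups taken from the labels. The authors deposited a table of log2 values, which RMA gave per the submitters' processing notes (the version is not given in the sources used here). The log2 base is the convention of RMA and is not stated in the table. Values were used as deposited, with no filter. Of 40161 probe sets, 30294 carried 1 symbol, 2145 several and 7722 none; 827 symbols were updated through RefSeq (GRCm38.p6). A gene with several probe sets was read from the one with the highest mean.

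One limma model (limma 3.58.1, statmod 1.5.0, R 4.3.3; lmFit and eBayes, tested on simulated data) held the mean of each group; its residual degrees of freedom were 4, its prior ones 2.59, and the SD of the residuals was 0.182 at the median probe set. The two-sided tests used Benjamini-Hochberg adjustment within each of 7 comparisons. The comparisons share arrays. The number of arrays limits the precision. In counts of the array holding the extreme value, a tie went to the first array.

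The members, lists and tests were chosen with earlier results of these data known. Genes were named by a rule: Hsf1, Hspa1a, Hspa1b, Hspa8, Hsp90aa1, Hsp90ab1, Hspd1, Hsph1, Dnajb1, Hspb1, Bag3 and Serpinh1, the 6 with the smallest unadjusted p in each comparison, and those with the highest and lowest mean level; the others named in the text, such as Hspe1, Hsf2, Hspa4, Hspa14, Chordc1, Bag1, Cct2, Hspbp1 and Dnajc9, were chosen after their values were seen. Alternatives were another spread model, a filter on dim probe sets, all probe sets, cyclic loess, median centring, the replicate block, only the groups compared, an unadjusted threshold, the mean of all probe sets of a gene and leaving out each array.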

Additional observations from a re-analysis of the deposited data

How the results depend on the processing

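No chaperone gene passed the adjusted threshold under any alternative with adjusted p-values, each array left out included. The fit with replicate numbers as a block gave 0 genes in each of the 7 comparisons. Same-numbered arrays showed little shared deviation (correlations of -0.09 to 0.16 between groups). With 2 arrays per group, this cannot show whether arrays of the same number were matched. Over the alternatives the limma adjusted p of Hsph1 ranged from 0.107 to 0.863 for irradiation in CD169DTR/+ and from 0.165 to 0.540 averaged over genotypes, and that of Hspb8 from 0.234 to 0.863 in CD169DTR/+. A further alternative was an unadjusted limma p under 0.05 with a fold of at least 1.5. Irradiation then gave 2 genes in WT (against 3.31% of all probe sets), 2 in CD169DTR/+ (against 3.58%) and 1 averaged (against 1.94%). Depletion gave 3 without irradiation (against 1.89%), 1 after 2 Gy (against 3.56%) and 0 averaged (against 1.05%). The interaction gave 5 (against 4.01%).

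Median centring moved the list's median to -0.245 for irradiation in WT, -0.16 averaged over genotypes and 0.045 for the interaction. With each array left out, the median ranged from -0.17 to -0.025 for irradiation in WT, -0.215 to -0.07 in CD169DTR/+, -0.1225 to -0.0625 averaged, 0.105 to 0.205 for depletion without irradiation, -0.005 to 0.165 after 2 Gy, 0.06 to 0.1375 averaged and -0.145 to 0.05 for the interaction. Leaving out both arrays that stood apart, an alternative chosen after seeing the data, gave -0.025 for irradiation in WT and 0.01 for depletion after 2 Gy. Among the differences of genes named under the naming rule and recomputed under each alternative, those that changed sign were Hspb8 for irradiation in WT (-0.075 without replicate 1 of non-irradiated WT, up to 0.345 over the arrays left out), Dnaja3 for irradiation in CD169DTR/+ (-0.255 without replicate 1 of the non-irradiated group, -0.14 without replicate 2 of the irradiated group or both far arrays, up to 0.325), Dnajb1 in the same comparison (0.03 without that replicate 2 or both far arrays, down to -0.09) and Hsph1 for depletion after 2 Gy (0.09 without that replicate 2, down to -0.46). Further small differences, such as those of Hsf2 and Tcp1 for irradiation in WT, were recomputed only for the scalings and left-out arrays, and some changed sign too. The cause was not tested. Signal near background limits Hspa1a, Hspb1 and Serpinh1.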
